A study of Arabidopsis thaliana with 9 samples.

Results

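Flavonols are plant phenolics made from phenylalanine. Chalcone synthase (CHS) joins a coumaroyl unit from the general phenylpropanoid pathway with malonyl units, chalcone isomerase (CHI) closes the ring, flavanone 3-hydroxylase (F3H) makes dihydroflavonols, flavonoid 3'-hydroxylase (F3'H) adds a hydroxyl that turns the kaempferol series into the quercetin series, and flavonol synthase 1 (FLS1) makes the flavonols themselves. In Arabidopsis the R2R3-MYB transcription factors MYB11, MYB12 and MYB111 are known to activate the early genes of this route, with MYB12 acting mostly in the root and MYB111 mostly in the cotyledons of seedlings, and light induces the route. CHS, CHI, F3H and F3'H also supply the anthocyanin branch, while FLS1 is the branch point enzyme of flavonols.

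The 8 genes described here are these 5 enzyme genes and 3 MYB genes, picked by locus from a table of 32833 loci. The series compared Arabidopsis thaliana seedlings and adult leaves of the ntrc mutant, in which the gene for a chloroplast NADPH-dependent thioredoxin reductase with its own thioredoxin domain is affected, and it concerns iron homeostasis. There were 3 groups of 3 libraries. Wild type (Col-0) and ntrc seedlings were 6 days old and had grown in MS, a medium of mineral salts, under continuous light of 125 µE per square metre and second. Adult ntrc plants were 8 weeks old, had grown in soil in short days at the same light intensity, and gave young rosette leaves taken 2 h into the light period, with the leaves of 3 plants pooled in each library. The sources used here do not state the allele or background of ntrc, and adult wild type leaves were not analysed here, so the adult data carry no genotype comparison. Both comparisons below share the 3 ntrc seedling libraries.

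Expression was read as log2(FPKM + 1), where FPKM counts fragments per length of transcript and per library size. The depth of sequencing cannot be read from the table, which has no counts, and precision rests on 3 libraries per group. NTRC itself, the targeted gene, averaged 149 ± 23.3 FPKM in the wild type seedling libraries. It averaged 17.8 ± 1.64 and 15.8 ± 0.616 FPKM in the seedling and adult libraries of the mutant (SD, n = 3 each). The 12 root marker genes summed to 96.4 to 157 FPKM in wild type seedlings and 113 to 132 in ntrc seedlings, whereas in adult leaves they summed to 7.72 to 8.05, with PLT1, PLT2, EXPA7 and PHT1;1 listed at 0. All 7 leaf mesophyll markers were at 1 FPKM or more in every library. The 5 seed coat markers, genes of a tissue that makes flavonoids in quantity, were below 1 FPKM throughout. Every seedling library had an upper quartile of 3.70 and every adult library 2.44 (deposited log2 values), so the authors' scaling was separate for seedlings and adult leaves.

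CHS was the most abundant of the 8 transcripts in each group. Its level was 238 ± 52.5 FPKM in seedlings of the wild type, 160 ± 53.6 in those of ntrc and 52.7 ± 8.97 in adult leaves (mean ± SD, n = 3 each), at or above 96.9% of all loci in every library. F3H came next with 51.4 ± 11.2, 39.7 ± 13.9 and 19.2 ± 5.50 FPKM in the same order of groups. FLS1 followed with 40.9 ± 6.17, 33.9 ± 10.6 and 3.29 ± 1.01 FPKM, and CHI with 29.0 ± 5.01, 24.6 ± 7.81 and 3.03 ± 0.511. F3'H was the lowest enzyme gene, at 7.72 ± 3.32, 5.66 ± 2.46 and 0.423 ± 0.0781 FPKM. Within wild type seedlings every library gave the order CHS, F3H, FLS1, CHI, F3'H, although the ranges of F3H and FLS1 overlapped. The ntrc seedling libraries gave the same order, with overlapping ranges for F3H and FLS1 and for FLS1 and CHI. In adult leaves FLS1 and CHI could not be ranked, since FLS1 was the higher of them in 2 of 3 libraries.

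The MYB genes were far lower than the enzyme genes. MYB12 was the highest of them in seedlings, at 3.47 ± 0.291 FPKM in wild type against 2.48 ± 0.483 in ntrc, and lay below F3'H in each seedling library. MYB111 averaged 0.999 ± 0.387 FPKM in the wild type and 0.785 ± 0.0195 in the mutant. MYB11 reached at most 0.256 FPKM in any library and was listed at 0 in wild type library 3 and in all 3 adult libraries. In adult leaves the order of the MYB genes was turned: MYB111 averaged 0.596 ± 0.153 FPKM, above MYB12 at 0.141 FPKM or less in each library. The plot of all 9 libraries shows these levels.

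**Figure D1:**
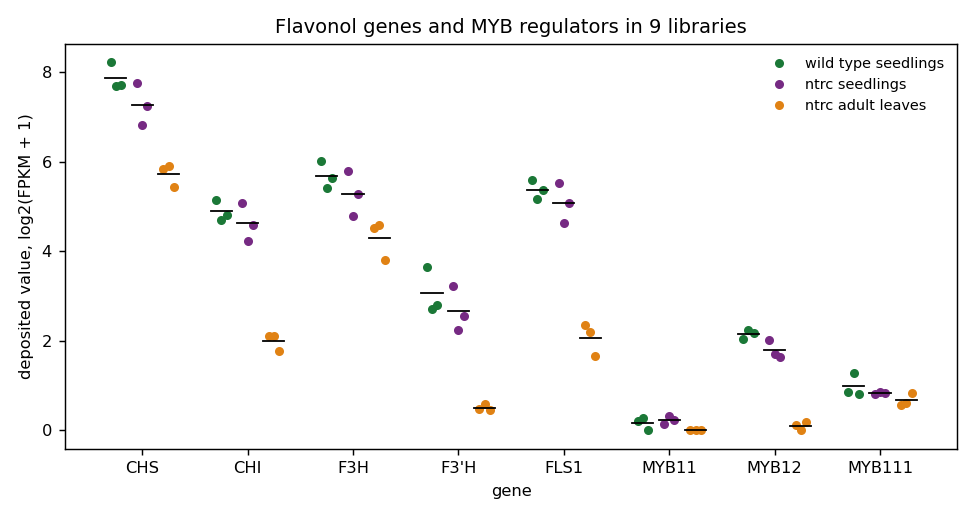
Deposited log2(FPKM + 1) of the 8 genes (vertical axis) for each gene (horizontal axis), with 1 point per library and a bar at the mean of 3 libraries of wild type seedlings, ntrc seedlings and ntrc adult leaves. CHS is the highest gene in each group, F3'H the lowest enzyme gene, and MYB12 lies near 2 in seedlings and near 0 in adult leaves. The adult values were scaled separately.

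The first comparison asked whether the ntrc mutation changed these genes in seedlings. All 6 members with enough signal were lower on average in ntrc, by 0.26 to 0.60 on the log2 scale, but none passed the test. Most leaf mesophyll markers stood the other way between the same libraries: 5 of 7 were higher in ntrc, where 9644 of 18818 tested genes were. Their median difference was 0.34, with LHCA1 highest at 0.55, while RBCS1A (-0.09), RBCS2B (-0.07) and RCA (0.04) stood near 0. None of these markers passed the test, and their part in the members' differences was not tested. MYB11 and MYB111 did not reach 1 FPKM in 3 of the 6 libraries and were left out of the test, which covered 18818 genes. Because these are bulk samples, fewer cells of a type and less RNA per cell cannot be told apart in any of the differences given here.

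CHS, the entry enzyme, stood at 8.22, 7.69 and 7.71 in wild type libraries 1 to 3 and at 7.77, 6.82 and 7.25 in ntrc libraries 1 to 3 (deposited log2 values). The highest ntrc library lay above 2 of the 3 wild type libraries, so the groups overlapped. The difference was -0.60 (SE 0.26, 95% interval -1.21 to 0.022), which is 1.51-fold lower in ntrc, and the adjusted p was 0.947 (limma, Benjamini-Hochberg over all genes tested). CHS had the widest difference among the enzyme genes.

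CHI stood at 5.16, 4.70 and 4.82 in wild type and at 5.09, 4.23 and 4.58 in ntrc, a difference of -0.26 (SE 0.23, 95% interval -0.80 to 0.28). F3H stood at 6.01, 5.41 and 5.65 against 5.79, 4.80 and 5.28, a difference of -0.40 (SE 0.27, 95% interval -1.05 to 0.25). In both genes ntrc library 1 was above 2 of the wild type libraries, and the adjusted p was again 0.947 (limma, Benjamini-Hochberg). F3'H, which sets the hydroxylation of the products, stood at 3.65, 2.72 and 2.81 in wild type and at 3.24, 2.24 and 2.55 in ntrc, a difference of -0.39 (SE 0.34, 95% interval -1.22 to 0.45). FLS1 stood at 5.60, 5.17 and 5.37 in wild type and at 5.52, 4.64 and 5.08 in ntrc, a difference of -0.30 (SE 0.23, 95% interval -0.83 to 0.24). These 2 genes overlapped between genotypes in the same way, with adjusted p of 0.948 and 0.947 (limma, Benjamini-Hochberg).

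MYB12 was the member whose genotypes did not overlap. Its deposited log2 values were 2.05, 2.24 and 2.19 in wild type against 2.01, 1.72 and 1.65 in ntrc, so all 3 ntrc libraries lay below all 3 wild type ones, by 0.04 at the closest pair. The difference was -0.37 (SE 0.13, 95% interval -0.67 to -0.062), with an unadjusted p of 0.0245 and an adjusted p of 0.947 (limma, Benjamini-Hochberg). Groups apart with ntrc lower occurred in 4.37% of all tested genes, and 1 of the 6 tested members was in that state. MYB111 stood at 0.85, 1.29 and 0.81 in wild type and at 0.82, 0.85 and 0.83 in ntrc, and MYB11 at 0.21, 0.29 and 0 against 0.15, 0.33 and 0.24. Both overlapped between genotypes. In a fit with no filter on low values their differences were -0.15 for MYB111 (SE 0.15, adjusted p 0.935) and 0.07 for MYB11 (SE 0.097, adjusted p 0.944; limma, Benjamini-Hochberg).

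No member passed an adjusted p of 0.05, where 0.0266% of all tested genes did (5 of 18818). At an unadjusted p below 0.05, MYB12 was the 1 member of 6, where 5.01% of all tested genes were below that limit (limma without a block). The libraries of equal number varied together, so the genotypes were also compared within number. Each of the 6 members was lower in ntrc in each of the 3 pairs, a state found in 15.2% of all tested genes, but the members are not independent observations since 5 of them rank the libraries alike, as described below. The median difference over the 6 members was -0.15 in pair 1, -0.53 in pair 2 and -0.33 in pair 3. In pair 1 the differences of CHI, FLS1 and MYB12 were close to 0, at -0.06, -0.07 and -0.04, while that of CHS was -0.45. With the number as a block all 6 members had an unadjusted p below 0.05 (limma), where 11.6% of all tested genes did, and still none passed the adjusted threshold, where 0.388% did (73 of 18818). The adjusted p with the block was 0.0952 for CHS, 0.154 for F3H, 0.154 for F3'H, 0.302 for FLS1, 0.352 for CHI and 0.357 for MYB12 (limma, Benjamini-Hochberg).

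**Figure D2:**
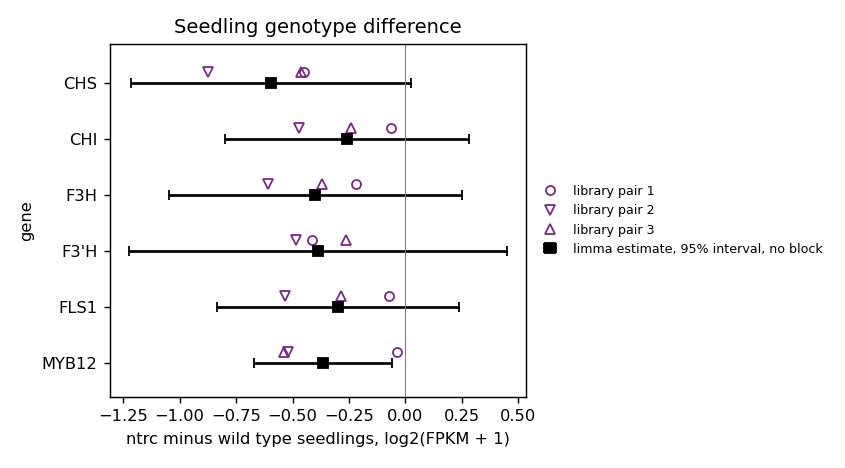
Difference between ntrc and wild type seedlings in log2(FPKM + 1) (horizontal axis) for the 6 tested genes (vertical axis). Squares with bars are the limma estimate with its 95% interval without a block, open symbols the difference within each of the 3 pairs of equally numbered libraries. Every open symbol lies below 0, and the interval of MYB12 alone leaves out 0.

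The enzyme genes shared a pattern across the seedling libraries that crossed the genotypes. CHS, CHI, F3H, F3'H and FLS1 all ranked the 6 libraries in the same order, which was wild type 1, ntrc 1, wild type 3, wild type 2, ntrc 3 and ntrc 2 from high to low. Of 18818 tested genes, 201 had that order (1.07%). Within ntrc the range from library 2 to library 1 was 0.95 in CHS, 0.86 in CHI, 0.99 in F3H, 1.00 in F3'H and 0.88 in FLS1 (log2 units), each wider than the mean difference between genotypes. Averaged over the 5 genes after centring each gene, the level was 0.54 in wild type 1, 0.30 in ntrc 1, 0.09 in wild type 3, -0.05 in wild type 2, -0.24 in ntrc 3 and -0.64 in ntrc 2. Each enzyme gene had a Pearson r of 0.971 or more with this mean, to which it contributes.

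MYB12 did not follow the enzymes. It ranked the libraries wild type 2, wild type 3, wild type 1, ntrc 1, ntrc 2 and ntrc 3, and its r with the enzyme mean was 0.60 (rho 0.43, n = 6 libraries, which hold both genotypes and share a scaling). The plot of deviations by library shows the enzyme genes moving together while MYB12 separates by genotype.

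**Figure D3:**
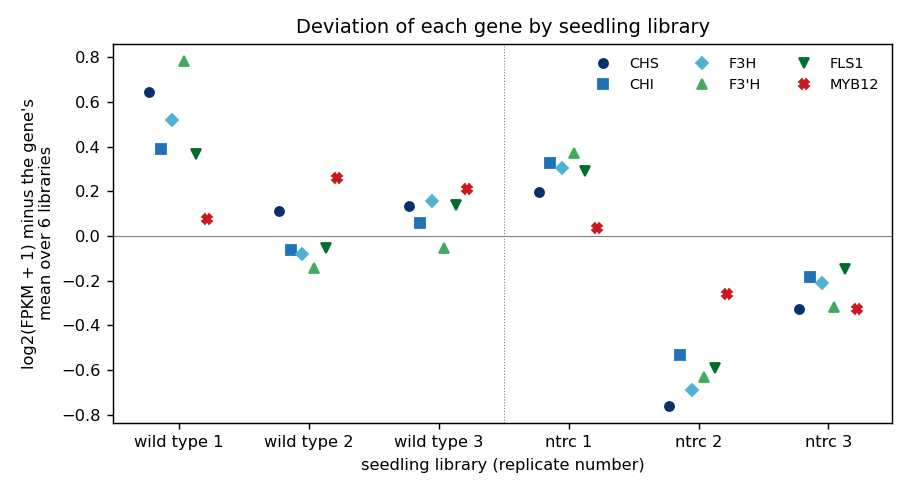
Deviation of log2(FPKM + 1) from the gene's mean over 6 seedling libraries (vertical axis) for each library (horizontal axis), with 1 symbol per gene. The 5 enzyme genes are highest in wild type 1, second in ntrc 1 and lowest in ntrc 2. MYB12 is above its mean by 0.26 in wild type 2 and below it by 0.33 in ntrc 3.

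Outside the 8 members, the 5 genes most like the enzyme mean across the 6 seedling libraries were AT4G27652, CAF1a (a CCR4-associated factor of mRNA deadenylation), BAP2 (BON association protein 2), CBF2 (a transcription factor of the cold response) and AT4G10510. Candidates were the 3464 non-member genes with an SD of at least 0.25. Their r was 0.997, 0.996, 0.995, 0.994 and 0.994, and all had the same order of libraries. CBF2 ran from 5.62 in wild type 1 and 4.80 in ntrc 1 down to 1.38 in ntrc 2, a wider range than any member's. CAF1a ran from 7.17 in wild type 1 to 3.38 in ntrc 2. The 5 were picked for this likeness, so their r is a description.

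Of the 5 pathway lists, that of the genes upstream of CHS had the highest median likeness, 0.91. In this general phenylpropanoid list, 6 of 11 genes had an r of at least 0.9 with the enzyme mean, where 2.81% of all tested genes did: PAL1 (0.983), PAL2 (0.946), C4H (0.949), 4CL1 (0.969), 4CL2 (0.908) and 4CL3 (0.926). PAL and C4H make coumarate from phenylalanine, and the 4CL enzymes activate it for CHS. PAL3 and PAL4 ran the other way, at -0.71 and -0.40. Among 10 tested accessory and decoration genes the limit was passed by 3: CHIL (0.953), a non-catalytic relative of CHI that assists CHS, UGT78D2 (0.939), a flavonoid glucosyltransferase, and RHM1 (0.987), a rhamnose synthase that supplies the sugar donor. In the anthocyanin branch none of 10 tested genes passed 0.9, although the median was 0.80. The highest were UGT79B1 (0.884) and 3AT1 (0.879), and DFR reached 0.85 and LDOX 0.83. None of 15 light and UV-B regulators passed, and HY5, a bZIP activator of CHS, stood at 0.10, the median of that list. Below 0 were 7 of the 15, where 10515 of all 18818 tested genes were, and the values ran from -0.99 for CRY1 to 0.79 for PHYB. Among 12 tested repressors 1 passed, MYB4 (0.912), which represses C4H. Most of that list ran the other way, with 10 of 12 below 0, beside the same 10515 of 18818. Its median was -0.65, with LBD39 at -0.915. All 7 leaf mesophyll markers ran against the enzyme mean, with a median r of -0.95, where the median of all tested genes was -0.12. The median of the 11 tested root markers was -0.34. The part of cell composition in the shared pattern was not tested.

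**Figure D4:**
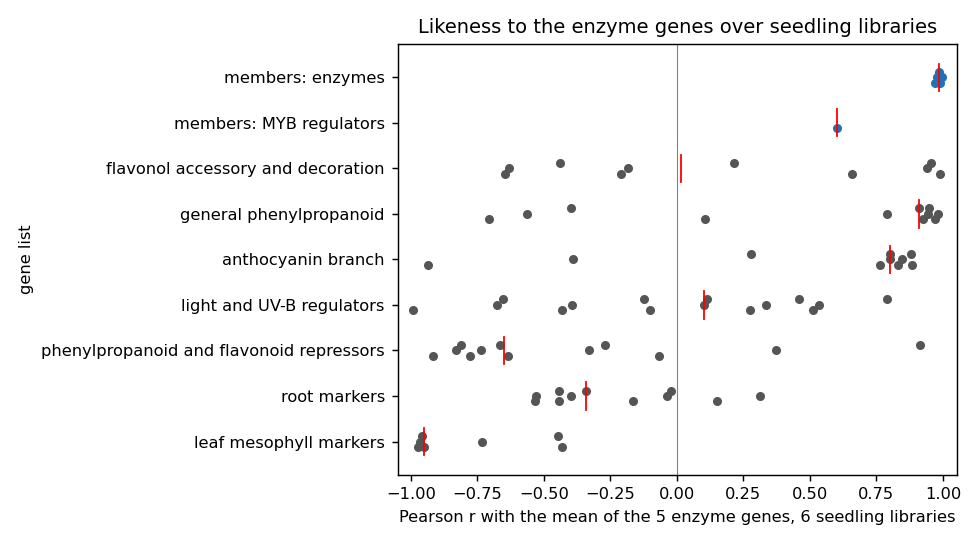
Pearson r with the mean of the 5 enzyme genes over 6 seedling libraries (horizontal axis) for the tested genes of each list (vertical axis), with a red bar at the list's median. The 5 enzyme genes lie at 0.971 or more with a mean they form, the general phenylpropanoid list has a median of 0.91, and the leaf mesophyll markers a median of -0.95.

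None of the genes in the 5 pathway lists passed the test between seedling genotypes. In the general phenylpropanoid list 8 of 11 were lower in ntrc, with a median of -0.16, and in the anthocyanin branch 9 of 10 were lower, with a median of -0.34, where 48.8% of all tested genes were lower and their median was 0.0037. The anthocyanin values leaned on wild type library 1. DFR stood at 6.46, 3.85 and 3.65 in wild type and at 4.95, 3.38 and 3.61 in ntrc, and without wild type library 1 its difference went from -0.68 to 0.22. Among the accessory genes 6 of 10 were higher in ntrc and 4 were lower, with a median of 0.09. CHIL stood at 6.37, 5.91 and 5.80 in wild type and at 5.91, 5.15 and 5.37 in ntrc, a difference of -0.55 (SE 0.23, adjusted p 0.947; limma, Benjamini-Hochberg). AT1G06000, annotated as a flavonol 7-O-rhamnosyltransferase, was listed at 0 in wild type library 1 and stood between 3.61 and 4.67 in the other 5 seedling libraries. The light regulators were split 7 higher to 8 lower, with HY5 at -0.10 and its homologue HYH at -0.05. Of the repressors 9 of 12 were higher in ntrc, with a median of 0.16. AT1G23390, a Kelch repeat F-box gene, had all 3 ntrc libraries (6.80, 7.24 and 6.74) above all 3 wild type ones (6.45, 6.73 and 6.52), a difference of 0.36 (SE 0.15, adjusted p 0.947; limma, Benjamini-Hochberg). Groups apart with ntrc higher occurred in 5.39% of all tested genes and in 3 of these 12.

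Differences between members were also compared within each library. The enzyme genes moved by different amounts across the seedling libraries (SD of log2 values 0.48 for CHS and 0.35 for FLS1, n = 6), so such differences still carry a share of their common movement, and FLS1 minus CHS was lowest in library 1 of each genotype. FLS1 minus CHS was -2.63, -2.52 and -2.35 in wild type against -2.25, -2.18 and -2.17 in ntrc (log2 units). All ntrc libraries lay above all wild type ones, and the means of -2.50 ± 0.14 and -2.20 ± 0.045 (SD, n = 3 each) differed by 0.30 (exact permutation test, two-sided, p = 0.1, the smallest that 3 against 3 libraries can give, adjusted p = 0.143 over 10 such differences). F3H minus CHS was also apart, at -2.21, -2.28 and -2.06 against -1.98, -2.02 and -1.97, with the same exact permutation p. F3'H minus F3H averaged -2.63 ± 0.24 and -2.62 ± 0.098 (SD, n = 3 each; exact permutation p = 1). F3'H minus FLS1 averaged -2.32 ± 0.33 and -2.41 ± 0.12 (SD, n = 3 each; exact permutation p = 0.9). MYB12 minus MYB111 was 1.20, 0.95 and 1.38 in wild type against 1.19, 0.86 and 0.81 in ntrc (exact permutation p = 0.2), and the groups overlapped.

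The second comparison set ntrc adult leaves against ntrc seedlings. Tissue, age, day length, medium and library kit all differ between these groups, and so does the authors' scaling, so they cannot be told apart. The values were rescaled over the 6 libraries by median ratios before the test. Of the 4 members above 1 FPKM in both groups, FLS1 and CHI fell, whereas CHS and F3H did not pass the test, where 40.7% of all tested genes fell and 30.1% rose (18986 tested). FLS1 and CHI also had groups that did not overlap, with all adult libraries lower, as did 43.3% of all tested genes. F3'H and MYB12 were below 1 FPKM in each adult library and entered the test through the seedlings alone, so they could hardly have passed other than as lower, and their differences are given as a description without a p.

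FLS1 stood at 4.82, 3.93 and 4.38 in ntrc seedling libraries 1 to 3 and at 2.97, 2.81 and 2.18 in adult libraries 1 to 3 (rescaled log2 values). All adult libraries lay below all seedling ones. FLS1 fell by 1.73 on the log2(FPKM + 1) scale (SE 0.29), which is 3.31-fold, and the adjusted p was 0.00241 (limma, Benjamini-Hochberg), and only 5.47% of all tested genes had a lower difference.

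CHI stood at 4.40, 3.54 and 3.89 in seedlings and at 2.71, 2.70 and 2.32 in adult leaves, and fell by 1.37 (SE 0.23, adjusted p 0.00176; limma, Benjamini-Hochberg). F3'H stood at 2.61, 1.69 and 1.97 against 0.73, 0.89 and 0.68, a difference of -1.33 (SE 0.23). Neither gene overlapped between the groups. MYB12 stood at 1.51, 1.24 and 1.19 in seedlings and at 0.21, 0 and 0.30 in adult leaves, a difference of -1.15 (SE 0.12). Since adult library 2 lists MYB12 at 0, the log2(FPKM + 1) scale understates this difference.

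CHS stood at 7.06, 6.08 and 6.53 in seedlings and at 6.57, 6.63 and 6.14 in adult leaves, with overlapping groups and a difference of -0.11 (SE 0.27, 95% interval -0.76 to 0.54, adjusted p 0.734; limma, Benjamini-Hochberg). F3H stood at 5.09, 4.09 and 4.58 against 5.22, 5.29 and 4.47, also overlapping, with a difference of 0.41 (SE 0.33, 95% interval -0.41 to 1.23, adjusted p 0.309; limma, Benjamini-Hochberg). The intervals for CHS and F3H both include 0, so neither a rise nor a fall of these genes was shown on this scale. MYB111, below the filter, stood at 0.55, 0.57 and 0.56 in seedlings and at 0.86, 0.90 and 1.18 in adult leaves, all adult libraries above all seedling ones. In the fit with no filter on low values its difference was 0.42 (SE 0.10, adjusted p 0.0107; limma, Benjamini-Hochberg). Its direction turned with the scaling, since its deposited log2 values were 0.58, 0.61 and 0.82 in adult leaves against 0.82, 0.85 and 0.83 in ntrc seedlings. MYB11 was listed at 0 in all 3 adult libraries and at 0.26 FPKM or less in seedlings, so no fold is given.

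On the deposited scaling CHS, CHI, F3H and FLS1 all fell, but the median of all tested genes was then -1.28 and 87.9% of them fell. Relative to that median, the differences were -1.73 for FLS1, -1.36 for CHI, -0.89 for F3'H, -0.41 for MYB12, -0.27 for CHS and 0.28 for F3H, where F3H itself fell by 0.99. Relative to the median of -0.097 under median ratio scaling, they were -1.63, -1.27, -1.23, -1.05, -0.01 and 0.50 in the same order of genes. The place of FLS1 and CHI below the median gene, and that of F3H above it, held under both scalings and under quantile normalization. MYB12 is known to act in the root. All 11 tested root markers fell from seedlings to adult leaves, where 40.7% of all tested genes fell. Of the 12 root markers, 10 were below 1 FPKM in each adult library. Most of the tested ones thus entered through the seedlings alone and could hardly have passed other than as lower, so their count carries no weight of its own. Their part in the MYB12 and enzyme differences was not tested.

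**Figure D5:**
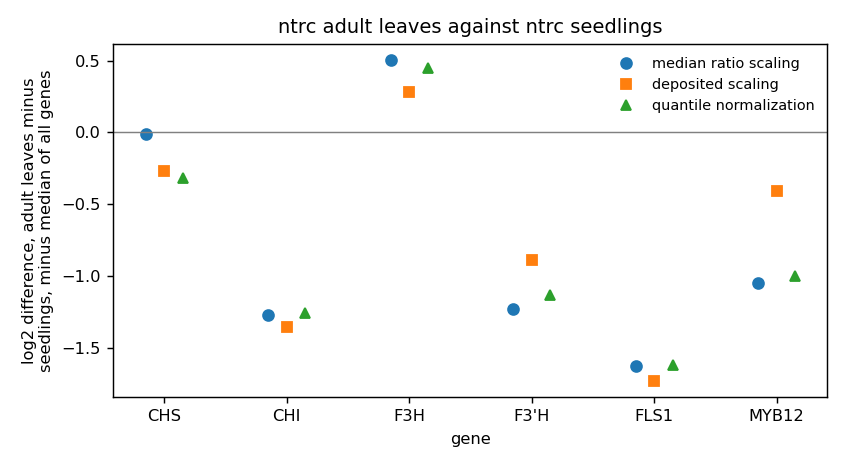
Difference between ntrc adult leaves and ntrc seedlings in log2(FPKM + 1), minus the median difference of all tested genes (vertical axis), for the 6 tested genes (horizontal axis) under 3 scalings. FLS1 and CHI lie below -1.2 and F3H lies above 0 under each scaling, while MYB12 moves from -1.05 under median ratio scaling to -0.41 on the deposited scaling.

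Differences between members within a library were also set side by side on the deposited values. FLS1 minus CHS was -3.50, -3.70 and -3.78 in adult leaves against -2.25, -2.18 and -2.17 in ntrc seedlings. F3H minus CHS went the other way, at -1.33, -1.33 and -1.64 in adult leaves against -1.98, -2.02 and -1.97. F3'H minus F3H was -4.04, -3.99 and -3.35 in adult leaves against -2.56, -2.56 and -2.73. MYB12 minus MYB111 changed sign, from 1.19, 0.86 and 0.81 in seedlings to -0.45, -0.61 and -0.64 in adult leaves. In each of these the groups did not overlap. For FLS1 minus CHS and F3H minus CHS the exact permutation p was 0.1, the smallest possible, and the adjusted p 0.143 over the 10 differences. F3'H minus FLS1 was also apart, at -1.56 ± 0.34 in adult leaves against -2.41 ± 0.12 (SD, n = 3 each). F3'H and MYB12 were below 1 FPKM in each adult library, so the differences that hold them are a description without a p. Their sizes depended on the pseudocount. With a pseudocount of 0.1, F3'H minus F3H went from -1.17 to -2.36 and MYB12 minus MYB111 from -1.52 to -3.57. With the same pseudocount, F3'H minus FLS1 went from 0.84 to -0.062.

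Genes around the members divided in the same comparison, under median ratio scaling. The list counts below stand beside 40.7% of all tested genes that fell and 30.1% that rose, and on the deposited scaling beside 87.9% that fell, and several lie near those shares. Some list genes entered the test through a single group, among them FLS3, FLS4, FLS5 and UGT79B1 through seedlings and PAP1 through adult leaves. The counts therefore carry no weight of their own. In the accessory and decoration list 2 of 10 tested genes rose and 6 fell, with a median of -0.76, and on the deposited scaling 0 rose and 8 fell. CHIL fell by 1.24 (SE 0.27, adjusted p 0.00671), while UGT78D1, a flavonol rhamnosyltransferase, rose by 1.49 (SE 0.098, adjusted p 8.35e-06) and RHM1 by 1.23 (SE 0.16, adjusted p 0.000366; limma, Benjamini-Hochberg), though on the deposited scaling RHM1 stood at -0.20 and UGT78D1 at 0.11 (adjusted p 0.312; limma, Benjamini-Hochberg). The FLS1 relatives FLS3, FLS4 and FLS5 were also lower, FLS3 by 2.62, and FLS4 and FLS5 were listed at 0 in all adult libraries. In the general phenylpropanoid list 1 of 11 rose and 4 fell (0 and 11 on the deposited scaling), with PAL1 at -0.18 and 4CL2 lower by 2.36 (adjusted p 0.000383; limma, Benjamini-Hochberg). In the anthocyanin branch 2 of 10 rose and 6 fell (1 and 9 on the deposited scaling): DFR fell by 2.15 and LDOX by 2.13. On the deposited scaling DFR stood at 0.173, 1.78 and 0.726 FPKM in adult leaves and LDOX at 0.162, 1.32 and 0.673. Each ntrc seedling library was above 1 FPKM for both genes, so the seedlings carried them past the filter. PAP1, a MYB activator of that branch, had a difference of 2.40 (SE 0.24). It is given without a p, since PAP1 was below 1 FPKM in each ntrc seedling library. Only 4 of the 10 anthocyanin genes fell under quantile normalization. The call of DFR was lost without adult library 1 or 3 (adjusted p up to 0.0705; limma, Benjamini-Hochberg). That of TT19 was lost without any library but ntrc seedling library 2 (adjusted p up to 0.0726; limma, Benjamini-Hochberg). UGT79B1, which entered through the seedlings alone, also lost its call without adult library 1 or 3 and is given without a p. Among 15 light regulators 8 rose and 4 fell (0 and 15 on the deposited scaling), HY5 falling by 0.52 and COP1, a ubiquitin ligase that targets HY5, rising by 1.13, against -0.23 for COP1 on the deposited scaling. Of 12 tested repressors 1 rose and 8 fell (0 and 10 on the deposited scaling): MYBL2, a repressor of the anthocyanin branch, rose by 1.75 (0.37 on the deposited scaling, adjusted p 0.0702; limma, Benjamini-Hochberg) and LBD38, a nitrogen-responsive repressor of anthocyanin genes, fell by 2.68.

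Since the 5 enzyme genes moved together, the sequence before each gene start was read for motifs of their known regulators. ACGT is the core bound by bZIP factors such as HY5, CACGTG is the G-box that contains it, and ACCNACC is a core bound by R2R3-MYB factors of this type. The 250 bases before the start are shown for CHS and F3H, which hold ACGT, for CHI and FLS1, which share their profile but hold none, and for MYB12, each on its own strand in RefSeq's TAIR10.1 assembly. The windows are chr5:4488226-4488475 (plus strand) for CHS, chr3:20431598-20431847 (minus strand) for CHI, chr3:19024942-19025191 (plus strand) for F3H, chr5:2803583-2803832 (plus strand) for FLS1 and chr2:19476076-19476325 (plus strand) for MYB12. Capitals mark ACGT and ACCNACC.
CHS: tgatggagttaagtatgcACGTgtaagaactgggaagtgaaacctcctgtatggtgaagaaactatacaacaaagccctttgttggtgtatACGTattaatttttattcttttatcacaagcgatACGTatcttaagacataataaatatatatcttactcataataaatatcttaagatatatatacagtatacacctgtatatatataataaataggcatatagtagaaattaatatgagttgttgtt
CHI: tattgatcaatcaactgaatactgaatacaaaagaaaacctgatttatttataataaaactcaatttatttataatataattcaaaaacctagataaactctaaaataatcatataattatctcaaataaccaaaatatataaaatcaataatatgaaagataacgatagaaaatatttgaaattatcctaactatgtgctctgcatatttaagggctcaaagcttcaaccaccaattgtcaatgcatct
F3H: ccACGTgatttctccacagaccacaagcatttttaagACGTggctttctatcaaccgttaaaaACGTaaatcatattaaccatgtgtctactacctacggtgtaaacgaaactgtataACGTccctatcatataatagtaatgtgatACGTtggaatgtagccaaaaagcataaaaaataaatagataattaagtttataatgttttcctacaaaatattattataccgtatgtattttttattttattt
FLS1: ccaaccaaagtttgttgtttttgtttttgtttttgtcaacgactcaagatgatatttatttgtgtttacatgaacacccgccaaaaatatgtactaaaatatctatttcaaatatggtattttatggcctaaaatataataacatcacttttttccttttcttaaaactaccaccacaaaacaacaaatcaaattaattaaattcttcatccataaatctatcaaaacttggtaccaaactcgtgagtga
MYB12: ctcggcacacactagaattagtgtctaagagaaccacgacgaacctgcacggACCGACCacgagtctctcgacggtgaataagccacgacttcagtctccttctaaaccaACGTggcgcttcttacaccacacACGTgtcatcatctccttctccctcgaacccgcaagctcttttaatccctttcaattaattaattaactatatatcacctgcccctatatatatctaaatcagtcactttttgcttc

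F3H held 5 ACGT cores in these 250 bases, CHS 3 and MYB12 2, while CHI, F3'H and FLS1 held none, and MYB11 and MYB111 held 1 each. CACGTG was present in CHS, F3H and MYB12, with its first base at -233 from the gene start in CHS and at -118 in MYB12. ACCNACC was present in MYB12 at -198. Over 250 bases before to 50 after the start, 7 of 8 members held ACGT, where 49.9% of 27443 promoters of that length did, 4 held CACGTG (7.68% of all) and 2 held ACCNACC (7.39% of all), searched on both strands. In the 250 bases before the start alone the members were 5, 3 and 1, and the shares of all promoters 44.1%, 6.49% and 6.10%. CHI and FLS1 gained an ACGT after the start, and CHS an ACCNACC at 35 bases into the gene. The ACGT of CHI lies within a CACGTG at 40 bases into the gene. CHI, F3'H and FLS1 shared the library order of CHS and F3H. They held none of the searched letters in the 250 bases before their starts. The part of these motifs in the shared order was not tested. A match in letters is no binding site by itself.

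By the same annotation CHS (AT5G13930) lies at chr5:4488476-4490264, CHI (AT3G55120) at chr3:20430059-20431597, F3H (AT3G51240) at chr3:19025192-19026872, F3'H (AT5G07990) at chr5:2560328-2563137 and FLS1 (AT5G08640) at chr5:2803833-2805606. MYB11 (AT3G62610) lies at chr3:23154630-23156585, MYB12 (AT2G47460) at chr2:19476326-19479597 and MYB111 (AT5G49330) at chr5:19998823-20001572. CHI and MYB111 are on the minus strand and the others on the plus strand. Loci on the opposite strand overlap 3 of them. AT3G51238 overlaps F3H by 1588 bases and reached at most 0.511 FPKM in any library, AT3G62615 overlaps MYB11 and was listed at 0 throughout, and AT5G13940 overlaps CHS by 2 bases. The sources used here do not say if counting used the strand, so the F3H and MYB11 values may hold reads of these partners.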

How the data were processed

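RNA sequencing of 9 Arabidopsis libraries in 3 groups of 3 was used. Seedling libraries were made with a stranded mRNA kit and adult libraries with a stranded total RNA kit that removes ribosomal RNA, per the labels' protocols. The authors deposited 1 table of 32833 loci on a log2 scale, read here from its values as log2(FPKM + 1). FastQC, HISAT2, StringTie and the build TAIR10 are named, without versions, in the submitters' processing notes, and the log base and pseudocount are not given in the sources used here. FPKM values were obtained by undoing the logarithm. Depth is unknown.

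The seedling genotypes were tested with limma 3.58.1 under R 4.3.3 (mean trend, robust, two-sided) on genes that reached 1 FPKM in 3 or more of 6 libraries, with Benjamini-Hochberg adjustment over all of them and a threshold of 0.05. Adult leaves were compared with seedlings in the same way after median ratio scaling over genes at 1 FPKM or more in all 6 libraries. The filter was applied to the deposited values, before that scaling, where the upper quartile was 2.44 in adult leaves and 3.70 in seedlings. Genes seen mostly in adult leaves therefore passed it less readily, which bears on the shares of tested genes that rose or fell. Differences within a library were compared with exact permutation tests (scipy 1.17.1). The fits were checked on simulated data.

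Deviations from group means correlated between wild type and ntrc seedling libraries of equal number at 0.506, 0.406 and 0.278, and between libraries of unequal number at -0.388 to 0.115. The seedling libraries were therefore also compared as pairs, with the number as a block. The main fit and the permutation tests did not use the pairs. The labels do not state this pairing, which was read from the values.

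Promoters were read from RefSeq's TAIR10.1 genome and annotation at the loci's gene starts, and 32548 of 32833 loci matched its gene names. The members and gene lists were chosen with earlier results of these data known. Genes named are the 8 members, a fixed set of pathway genes, list genes that passed a test or are given for their r, and the 5 genes most alike in r over the 6 seedling libraries. Alternatives were the replicate block, pseudocount 0.1, other filters, moderation and scalings, and leaving out each library.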

Additional observations from a re-analysis of the deposited data

How the results depend on the processing

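In seedlings no member passed under any of 17 alternatives, the differences of the 6 tested members stayed below 0 in each alternative that tested them, and the median over members ran from -0.59 to -0.16. The count of all genes that rose and fell was 1 and 4. It became 30 and 43 with the replicate block, 27 and 45 with the replicate block and quantile normalization, and 0 and 2 with a pseudocount of 0.1. Leaving out 1 library gave 0 to 2 and 1 to 22, the latter without ntrc library 1, and the replicate block without pair 1, 2 or 3 gave 21 and 51, 6 and 23, and 28 and 43. The block with all pairs changed no call of a named gene in seedlings, and without pair 1 it added 4CL2 (-0.98, adjusted p 0.0372; limma, Benjamini-Hochberg). On leaving out 1 library, AT1G06000 ran from -0.32 to 2.01, DFR from -1.18 to 0.22, LDOX from -1.18 to 0.032, HYH from -0.22 to 0.13, COP1 from -0.057 to 0.040, RUP2 from -0.098 to 0.24 and MYBL2 from -0.16 to 0.00049. DFR, LDOX and AT1G06000 turned without wild type library 1. With the block and without pair 1, AT1G06000 turned to -0.29 and RUP2 to -0.16, without pair 2, HY5 to 0.039 and COP1 to 0.029, and without pair 3, HYH to 0.029 and MYBL2 to 0.074. Between adult leaves and seedlings the numbers did not pair the libraries (0.055, -0.059 and 0.031), and the replicate block moved the genes that fell from 7720 to 7367, with the calls of DFR, TT19, UGT79B1 and ATR2 lost. The median over the tested members, F3'H and MYB12 among them, was -1.24. It became -1.70 with a pseudocount of 0.1, -0.74 at a minimum of 5 FPKM, -1.93 on the deposited scaling, and -1.30 to -0.49 on leaving out 1 library. The fit called 4 members lower, where 40.7% of all tested genes fell. That count holds F3'H and MYB12, which entered through the seedlings alone, so it carries no weight of its own. It became 2 at the 5 FPKM minimum and without any of the 3 ntrc seedling libraries, since F3'H and MYB12 then missed the filter. Leaving out 1 library gave 4476 to 7401 genes that fell, and the deposited scaling 1303 that rose and 16684 that fell. On leaving out 1 library CHS ran from -0.35 to 0.14, turning without adult library 3 and without ntrc seedling library 1, PAL1 from -0.42 to 0.083, HYH from -0.052 to 0.29 and MYB4 from -0.089 to 0.19. On the deposited scaling F3H turned to -0.99, UGT78D2 -1.19, AT1G06000 -0.89, RHM1 -0.20, PAL2 -1.09, C4H -1.19, 4CL1 -1.14, ATR2 -1.08, TTG1 -0.90, HYH -1.28, COP1 -0.23, SPA1 -0.46, SPA4 -0.44, RUP2 -0.58, BBX22 -0.47, BBX24 -0.59, BBX25 -1.09, PHYB -0.40 and MYB4 -1.23, and C4H turned to -0.091 with quantile normalization. Over all alternatives 23 values of single genes lost a call and 8 gained it. Apart from the filter and the scaling themselves, the cause of these changes was not tested. Between seedling genotypes F3'H minus F3H, at 0.012, turned to -0.037 with a pseudocount of 0.1 and ran from -0.091 to 0.15 on leaving out 1 library, and F3'H minus FLS1, at -0.088, ran from -0.21 to 0.098. Between adult leaves and seedlings F3'H minus FLS1 turned to -0.062 with a pseudocount of 0.1. Members with ACCNACC, and with both ACGT and ACCNACC, were 1 in the 250 bases before the start alone. Without counts, no limit set by depth could be given.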
